A study of Acropora aff. hyacinthus sp. E JTL-2012 with 12 samples.

Results

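Contigs for ammonium assimilation and ammonium transport were followed in fragments of the tabletop coral Acropora aff. hyacinthus sp. E JTL-2012. They are the rows of the deposited table whose description contains glutamine synthetase, glutamate dehydrogenase, glutamate synthase, ammonium transporter, Rh type or Rhesus. The wording selected 13 of 16980 contigs. They comprise 1 contig of glutamine synthetase, 3 of glutamate dehydrogenase, 2 of glutamate synthase, 2 of Ammonium transporter Rh type C-like 2, 1 of Putative ammonium transporter 1 and 3 of Putative ammonium transporter 3. The remaining contig is N-acetylglutamate synthase, an enzyme of another reaction, which was selected because its name contains glutamate synthase. A contig is a piece of an assembled transcriptome, so several contigs with a single description need not be separate genes, and none has a genome position here.

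RNA of polyps from 6 coral colonies was sequenced. Each colony had 1 fragment in each of 2 reef pools, called pool 300 and pool 400 in the labels, giving 12 libraries. Pool 300 was home to corals 2, 7 and 75, and pool 400 to corals 40, 68 and 70. The 4 groups of 3 corals are therefore corals from pool 300 living in pool 300 or in pool 400, and corals from pool 400 living in pool 300 or in pool 400. Fragments that stayed in their home pool were transplanted as well. All were transplanted on August 3, 2010 and sampled in place on August 30, 2011, around noon. No genotype beyond the colony and no age is given in the labels, and the algae living in the coral cells were sampled with their host.

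Reef-building corals house photosynthetic algae of the family Symbiodiniaceae, and ammonium is a main form of nitrogen exchanged between them. Glutamine synthetase joins ammonium to glutamate to make glutamine, and glutamate synthase moves the amide nitrogen of glutamine to 2-oxoglutarate to give glutamate. Glutamate dehydrogenase interconverts ammonium plus 2-oxoglutarate and glutamate, and can work in either direction. Ammonium transporters of the AMT and Rh families carry ammonium or ammonia across membranes, and Rh glycoproteins are known in vertebrates for excretion of ammonia. The descriptions do not say whether a contig comes from the coral or from its algae.

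The values are read counts divided by a size factor for each library, as deposited. Because contigs differ in length and the lengths are not given, levels are compared between libraries for a contig and never between contigs. Between 557339 and 1643526 reads per library could be recovered from the values. A single read is worth between 0.586 and 1.66. The median-ratio factor of each library was recomputed from those reads and divided by the deposited one. These ratios were scaled to their median in pool 300. They ran from 0.995 to 1.002 in pool 300 but from 0.777 to 1.56 in pool 400, with the highest ratio in coral 70. Of the 48 pool differences of single corals in the 8 tested members, 11 changed sign after median-ratio rescaling. Deviations from the group mean of both fragments of a coral correlated across all tested contigs at -0.22 in coral 40 and 0.0627 in coral 68, but at 0.394 to 0.688 in the other corals. Pairing as labelled was kept. A pairing in which corals 40 and 68 exchange their pool 400 fragments was run beside it. Both corals have the same origin, so the groups stay as they are.

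Of the 13 members, 8 reached the minimum mean value of 10 that was set for testing. Of these 8, 0 differed between pools or between origins by limma with an adjusted p under 0.05 over all 11903 contigs tested. Of all contigs tested, 0.344% passed between pools over 6 corals and 0.0336% between origins. A single contig, of Ammonium transporter Rh type C-like 2 (contig179475), differed among the 6 corals, where 4.97% of all tested contigs did. It had no read in either fragment of corals 75 and 70, and 7 to 50 reads in each of the 8 other libraries. Glutamine synthetase held the narrowest range of levels of the 8 on the deposited scale, and the second Rh type C-like 2 contig was 1.25-fold higher in pool 300 on average without passing the test.

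**Figure D1:**
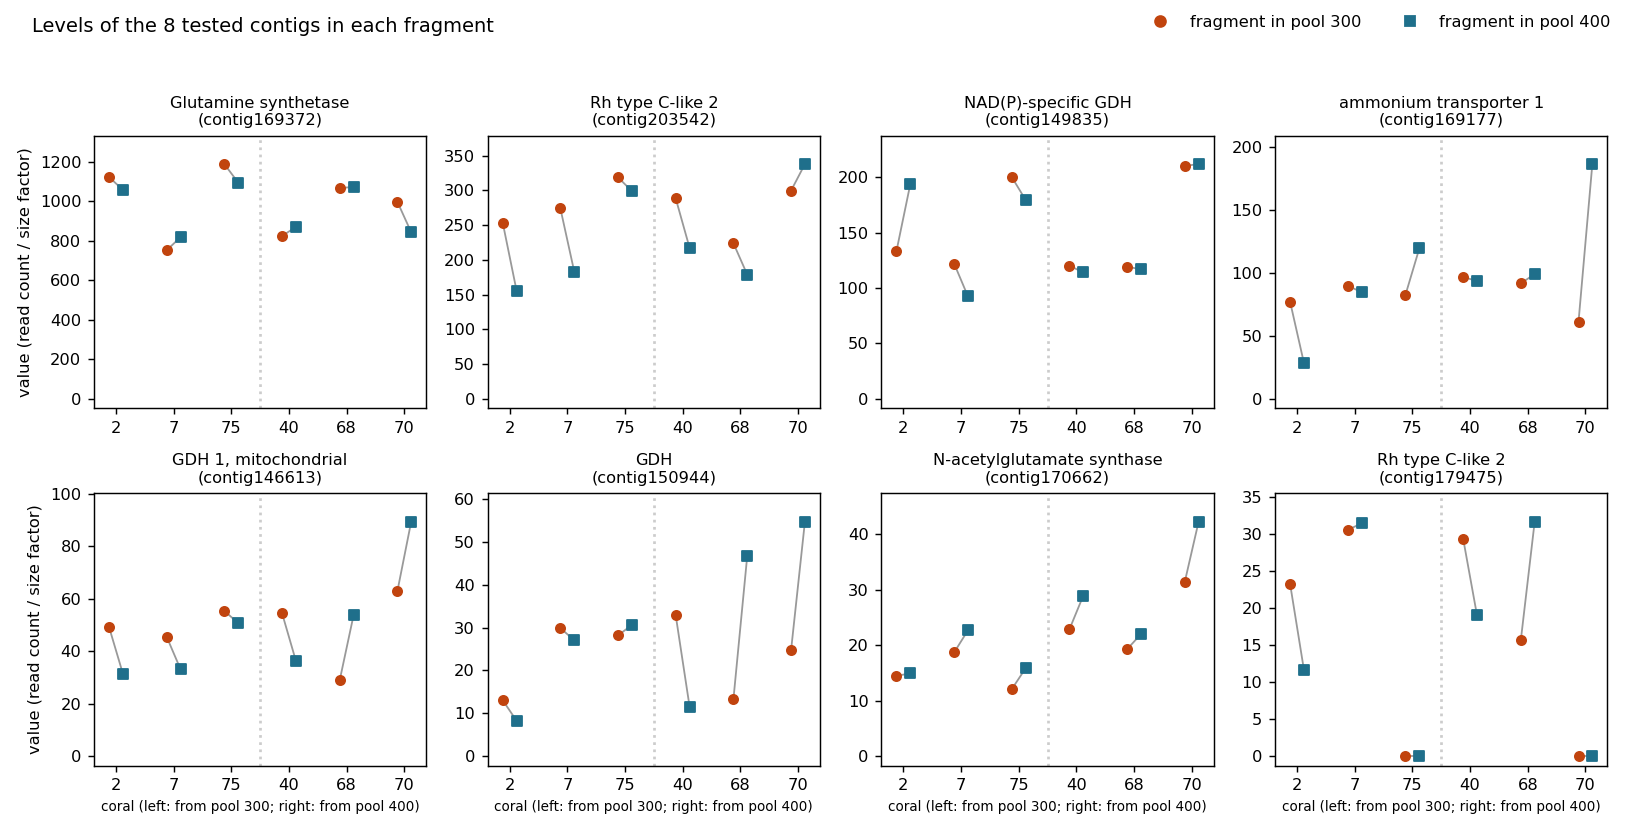
Level of each of the 8 tested contigs, as read count divided by size factor on the vertical axis, for every coral on the horizontal axis, with circles for fragments in pool 300, squares for fragments in pool 400 and a line joining both fragments of a coral. In the panel of contig179475 all 4 fragments of corals 75 and 70 lie at 0, whereas the 8 others lie between 11.6 and 31.6.

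Glutamine synthetase (contig169372), which carries out the first step of assimilation, was measured with 12175 reads in all. In corals 2, 7 and 75 it was at 1124, 752 and 1189 in pool 300 and at 1058, 819 and 1095 in pool 400. In corals 40, 68 and 70 it was at 825, 1067 and 998 in pool 300 and at 870, 1074 and 844 in pool 400. Corals 7 and 40 were low in both pools and corals 2, 75 and 68 were high in both, so that the groups overlapped throughout. The mean was 992 ± 172 in pool 300 and 960 ± 128 in pool 400 (SD, n = 6). The pool difference of 0.04 on the log2(value + 1) scale had an SE of 0.07 and a limma adjusted p of 0.9996. Its 95% interval ran from -7.83% to 14.7% in pool 300 relative to pool 400, in the deposited values. Rescaling gave an estimate of 0.03, but its SE was 0.19.

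The highest library was 1.58 times the lowest, and the coefficient of variation of glutamine synthetase over the 12 libraries was 14.9%, against a median of 37.7% over all tested contigs. It lay at the 2.41 percentile of all tested contigs, and at the 11 percentile among the 500 contigs of nearest mean. After rescaling it was 21.5%, at the 17.3 percentile, and the highest library was 2.52 times the lowest. The rescaled coefficients of contig203542 and contig146613, at 16.7% and 19.8%, were then lower. The rescaled pool difference of coral 70 was 0.88, where it was 0.24 as deposited, and that of coral 2 went from 0.09 to -0.27. The F test among the 6 corals gave an unadjusted p of 0.00617 and a limma adjusted p of 0.0735. Under the exchanged pairing that adjusted p was 0.595, and after rescaling it was 0.455. The differences among corals in this contig thus did not pass in any of these settings, and they passed when coral 70 was left out (adjusted p = 0.0438), a setting in which 7.25% of all contigs passed.

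Of the glutamate dehydrogenases, NAD(P)-specific glutamate dehydrogenase (contig149835) had 1934 reads. Glutamate dehydrogenases of this specificity can use either NAD or NADP as the electron carrier. It was at 133, 122 and 200 in pool 300 and at 194, 92.4 and 180 in pool 400 in corals 2, 7 and 75. In corals 40, 68 and 70 it was at 120, 119 and 210 in pool 300 and at 114, 117 and 212 in pool 400. Corals 75 and 70, of different origins, were the highest in both pools except that coral 2, at 194 in pool 400, exceeded coral 75 there. Its pool difference was 0.02 (SE 0.14, limma adjusted p = 0.9996) and its origin difference 0.05 (SE 0.32, limma adjusted p = 0.998). After rescaling coral 70 went from -0.01 to 0.63 and coral 40 from 0.08 to -0.15. Coral means ran from 107 to 211 as deposited. The F test among corals gave an unadjusted p of 0.00747 and a limma adjusted p of 0.0802, and after rescaling the adjusted p was 0.398.

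Glutamate dehydrogenase 1, mitochondrial (contig146613), the form of the mitochondrial matrix, was at 49.2, 45.5 and 55.3 in pool 300 and 31.5, 33.1 and 50.7 in pool 400 in corals 2, 7 and 75. All 3 of these corals were higher in pool 300. In corals 40, 68 and 70 it was at 54.5, 28.9 and 62.8 in pool 300 and 36.4, 53.6 and 89.3 in pool 400, with coral 40 higher in pool 300 and corals 68 and 70 higher in pool 400. The pool difference was 0.40 (SE 0.32) for the pool 300 corals and -0.27 (SE 0.32) for the pool 400 corals. The difference between those effects was 0.67 (SE 0.45), with a limma adjusted p of 0.9996. In coral 70 the direction depends on scaling: its log2 difference of -0.50 became 0.13 after rescaling.

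The contig described only as Glutamate dehydrogenase (contig150944) varied more. It was at 13.0, 29.9 and 28.2 in pool 300 and at 8.28, 27.0 and 30.6 in pool 400 in corals 2, 7 and 75. It was at 32.8, 13.2 and 24.7 in pool 300 and at 11.6, 46.7 and 54.7 in pool 400 in corals 40, 68 and 70. Coral 2 was low in both pools, while corals 40 and 68 differed in opposite directions, by 1.43 and -1.74 on the log2 scale. The low fragments of corals 40 and 68 are those of different pools, as they are in Glutamate dehydrogenase 1 and contig179475. The F test among corals gave a limma adjusted p of 0.404 as labelled and 0.0778 with those fragments exchanged. With rescaling and exchange together, a setting chosen after seeing the data, it was 0.032. In that setting 7.67% of all contigs passed. Neither rescaling alone (adjusted p = 0.443) nor exchange alone brought a call.

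Of the transporters, the more deeply measured Ammonium transporter Rh type C-like 2 (contig203542, 3393 reads) was at 253, 274 and 319 in pool 300 in corals 2, 7 and 75. In pool 400 the same corals were at 156, 183 and 299. Corals 40, 68 and 70 were at 288, 224 and 300 in pool 300, and at 217, 179 and 338 in pool 400. The fragment in pool 300 was the higher in 5 of 6 corals and coral 70 went the other way, though the ranges of both pools overlapped. At least 5 of 6 corals were higher in pool 300 in 11.9% of all tested contigs. The mean was 276 ± 34.0 in pool 300 and 229 ± 73.4 in pool 400 (SD, n = 6).

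The pool difference of contig203542 was 0.32 on the log2 scale (SE 0.13), or 1.25-fold, with a 95% interval of 2.77% to 52.0% higher. Its unadjusted limma p was 0.0293, the smallest of the 8 contigs in this comparison. Over all contigs tested the limma adjusted p was 0.883, so it did not pass. After rescaling all 6 corals were higher in pool 300, by 0.18 to 0.47, which held in 1.54% of all tested contigs against 1.82% on the deposited scale. The estimate was then 0.31 (SE 0.13) and the limma adjusted p 0.828. With the exchanged pairing the estimate was the same, but the SE was 0.17 and the unadjusted limma p 0.075. That p was 0.129 with no replicate block and 0.0348 after rescaling alone. The effect was 0.46 in the pool 300 corals and 0.19 in the pool 400 corals. That gap of 0.27 (SE 0.26) had a limma adjusted p of 0.9996, and it was under 0.01 in size after rescaling.

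**Figure D2:**
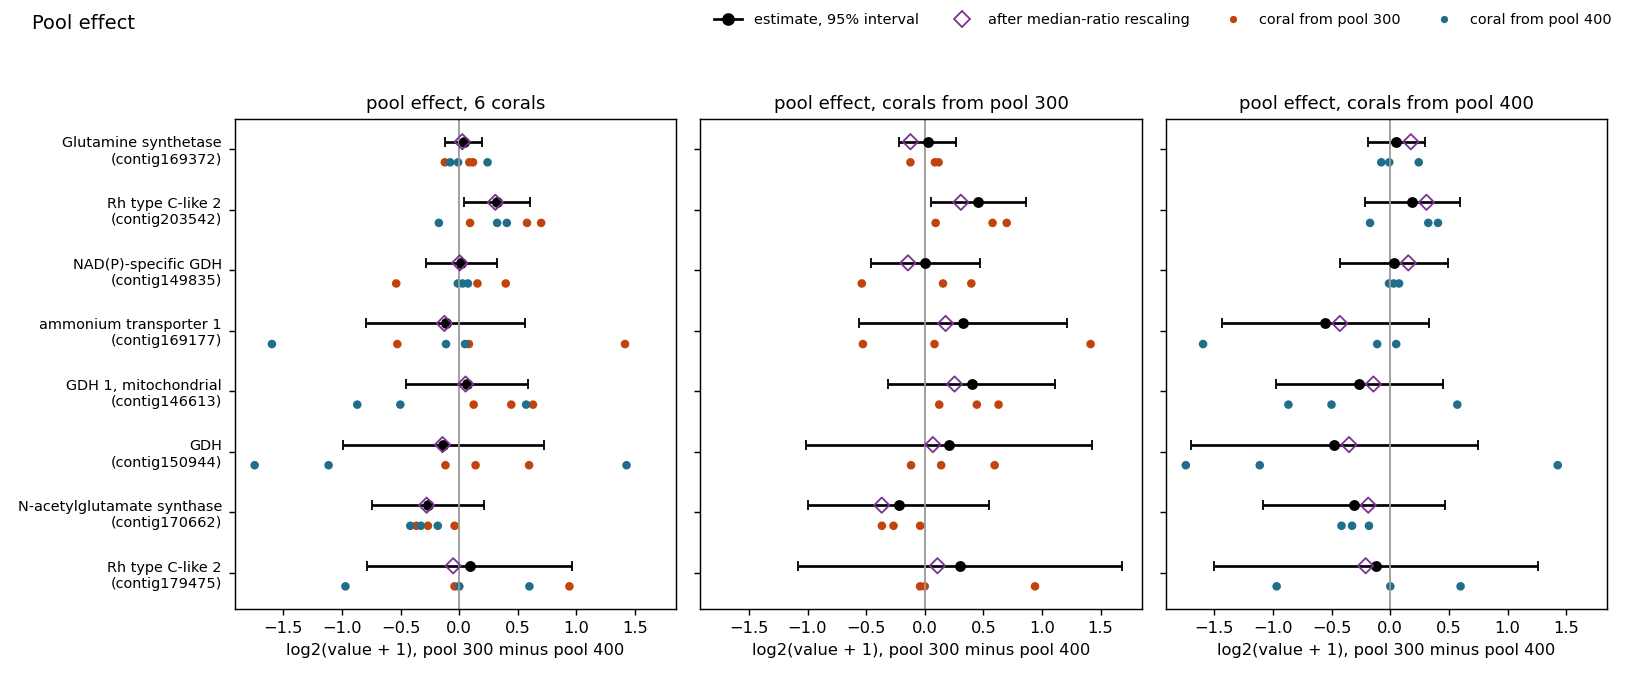
Difference in log2(value + 1) between pool 300 and pool 400 on the horizontal axis for the 8 tested contigs, over all 6 corals and in corals of each origin. Black circles with bars are limma estimates with 95% intervals, open diamonds are the estimates after median-ratio rescaling, and small dots are single corals. Over 6 corals, with the pairing as labelled, the interval of contig203542 alone excludes 0, from 0.04 to 0.60, before adjustment.

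The other Ammonium transporter Rh type C-like 2 contig (contig179475, 217 reads) showed presence or absence by coral. It was at 23.2 and 11.6 in coral 2, at 30.5 and 31.4 in coral 7, at 29.3 and 19.0 in coral 40 and at 15.7 and 31.6 in coral 68, in pool 300 and pool 400 respectively. In corals 75 and 70 it was at 0 in both pools. The 4 libraries at 0 held between 867726 and 1643526 reads and include the deepest of the series, whereas coral 2 in pool 400, the shallowest library, had 7 reads of it. A count of 0 allows up to 3 reads per library, or values of 2.08 to 3.17 in those libraries, for counting error only. The lowest of the 8 other libraries, at its observed value, was thus at least 3.66-fold higher than that limit in each of them. Counting error of its own 7 reads is not included in that ratio.

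The F test among corals gave contig179475 a limma adjusted p of 0.00518, with a range of 4.998 between coral means on the log2(value + 1) scale. Among the 8 members it was the single call, where 4.97% of all tested contigs were called. Its adjusted p ran from 0.000183 to 0.0292 over 16 alternatives. With the minimum mean of 20 it was not tested. Coral 75 came from pool 300 and coral 70 from pool 400, so the absence does not follow the pool of origin. The origin difference was -0.01 (SE 1.43, limma adjusted p = 0.999). Between pools the difference was 0.09 (SE 0.39) and -0.05 after rescaling, to which corals 75 and 70 contribute exactly 0. Within the corals that had reads, coral 2 and coral 40 were higher in pool 300, coral 68 was higher in pool 400 and coral 7 differed by -0.04.

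How often contigs lacked reads in a coral was counted after the values of contig179475 had been seen, with definitions taken from it, and serves as a description. Of all tested contigs, 63 (0.529%) had no read in both fragments of at least 1 coral. In 7 (0.0588%) all other libraries were in addition at 10 or more. In 2 (0.0168%) corals 75 and 70 were both without reads, and contig179475 was the 1 of them (0.0084%) with at least 10 in the 8 remaining libraries. Another of the 7 was absent from exactly a pair of corals, which were 40 and 68. The companion contig203542, of the same description, was read in all 12 libraries and had its highest coral means in corals 75 and 70, at 309 and 319, against 201 to 253 in the others. After rescaling coral 75 was highest at 292, and coral 40 at 269 exceeded coral 70 at 257. Sequences of these contigs were not used here, so whether both belong to a single gene was not tested.

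**Figure D3:**
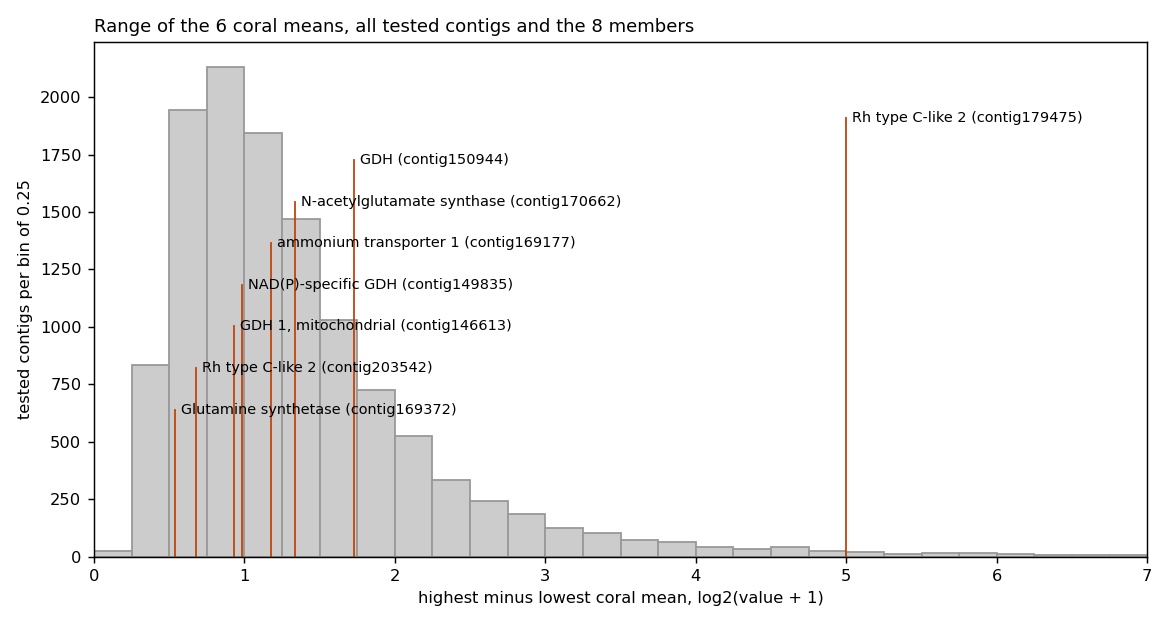
Number of tested contigs, on the vertical axis, by the difference between their highest and lowest coral mean in log2(value + 1), on the horizontal axis in bins of 0.25 (the last bin also holds all larger ranges), with a line for each of the 8 members. Glutamine synthetase stands at 0.54 near the low end, 6 members lie between 0.68 and 1.73, and contig179475 stands at 4.998, above 99.1% of contigs.

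Putative ammonium transporter 1 (contig169177, 1265 reads), named for the AMT family, was nearly level between pools in 3 corals and spread in the others. In pool 300 it was at 76.7, 89.7 and 82.5 in corals 2, 7 and 75 and at 96.7, 91.5 and 60.9 in corals 40, 68 and 70. In pool 400 it was at 28.1, 84.6 and 119 and at 93.4, 99.0 and 186. Corals 7, 40 and 68 differed between pools by -0.11 to 0.08, whereas coral 2 was 1.42 higher in pool 300 and coral 70 was 1.60 higher in pool 400, a log2 difference of -1.60. The SD over corals was 12.9 in pool 300 and 51.5 in pool 400. After rescaling it was 12.8 and 29.7, and the differences of corals 2 and 70 were 1.07 and -0.96. Corals 7 and 40 then turned to -0.16 and -0.17, so that coral 2 alone was higher in pool 300 and 5 corals were lower, where 3 were higher and 3 lower as deposited. These corals hold the libraries with the shallowest and the deepest reads, and their part in this spread was not tested.

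Over all 6 corals ammonium transporter 1 had a pool difference of -0.11 (SE 0.31, limma adjusted p = 0.9996). The effect was 0.32 among pool 300 corals and -0.55 among pool 400 corals. That difference of 0.88 (SE 0.56, limma adjusted p = 0.9996) was the largest of the 8 contigs, and it was 0.61 (SE 0.44) after rescaling. A positive difference means higher levels in the home pool than in the other. It did not pass the test.

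N-acetylglutamate synthase (contig170662, 302 reads) makes N-acetylglutamate, which in vertebrates activates the carbamoyl phosphate synthetase that feeds ammonia into the urea cycle. It was at 14.5, 18.7 and 12.1 in pool 300 and at 14.9, 22.7 and 15.8 in pool 400 in corals 2, 7 and 75. In corals 40, 68 and 70 it was at 22.9, 19.3 and 31.4 in pool 300 and at 28.9, 21.997 and 42.2 in pool 400. All 6 corals were lower in pool 300 as deposited, by 0.04 to 0.42 log2 units, which 1.76% of all tested contigs were. After rescaling coral 70 was 0.21 higher in pool 300 and the other 5 stayed lower, where all 6 were lower in 1.86% of contigs. The pool difference of -0.27 (SE 0.22) had a limma adjusted p of 0.9996. It also had the largest origin difference of the 8. Coral means averaged 16.4 ± 3.69 for pool 300 origin and 27.8 ± 8.26 for pool 400 origin (SD, n = 3). Coral 7 and coral 68, at 20.7 and 20.6, brought the origins into contact. The origin difference was -0.70 (SE 0.37, limma adjusted p = 0.998), and -0.57 after rescaling.

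Counts over the 8 tested members stayed near the background in the comparisons of pools and origins. Over all 6 corals 5 were higher in pool 300 and 3 lower, where 44.35% of all contigs were lower. The median of the 8 was 0.029 beside 0.0297 for all contigs, and after rescaling 4 were higher and 4 lower. By limma 0 passed where 0.344% of all contigs did, 1 had an unadjusted p under 0.05 beside 4.87% of all contigs, and edgeR gave the same counts of 0 and 1. In corals from pool 300, 7 were higher at home and 1 lower, where 33.6% of all contigs were lower. The median of the 8 was 0.254 against 0.126 over all contigs. None of these 8 passed, 1 had an unadjusted p under 0.05 beside 4.71% of all contigs, and 0.554% of all contigs passed. After rescaling 5 were higher and 3 lower, and edgeR gave 0 calls with 0 unadjusted.

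In corals from pool 400, 3 of the 8 were higher in pool 300 and 5 lower, where 61.2% of all contigs were lower. The median of the 8 was -0.195 against -0.0868 over all contigs. By limma 0 were called and 0 had an unadjusted p under 0.05, edgeR gave the same, and 0% of all contigs passed. The difference between origins in pool effect was likewise called in 0 members by limma and edgeR, with 0 unadjusted in both. Among all contigs limma called 0% and edgeR 0.0084%. Between origins 2 were higher in corals from pool 300 and 6 lower, where 62.0% of all contigs were lower. The median of the 8 was -0.15 against -0.103 over all contigs. By limma 0 passed, 0 had an unadjusted p under 0.05, and edgeR gave the same. Of all contigs 0.0336% passed, and 0.0252% of all contigs passed as lower. After rescaling 4 of the 8 were higher and 4 lower, and the median of all contigs moved from -0.103 to 0.0304. Within pool 300 alone 7 of the 8 origin differences were between 0.01 and 0.20, and N-acetylglutamate synthase was at -0.66. Within pool 400 alone they ran from -0.85 to 0.09.

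Among corals 5 of the 8 had an unadjusted p under 0.05, beside 26% of all contigs, and after rescaling 1 of the 8 did. Rescaling left 1 of the 8 called, where 3.3% of all contigs were called. With edgeR 1 of the 8 was called, where 3.5% of all contigs were with TMM scaling, and 2 had an unadjusted p under 0.05. The unadjusted share over all contigs was not counted in these settings. Fewer copies of a transcript per cell and fewer cells that make it cannot be told apart in these libraries of whole polyps.

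The 5 members with a mean under 10 were not tested with the others and rest on 39 to 111 reads each. Glutamate synthase 1 [NADH], chloroplastic (contig7433) is described by the name of a plant enzyme. It had 2, 12 and 13 reads in pool 300 and 4, 5 and 11 in pool 400 in corals 2, 7 and 75. It had 12, 4 and 12 reads in pool 300 and 10, 4 and 22 in pool 400 in corals 40, 68 and 70. Its values ran from 2.90 to 15.2, with the highest coral means in corals 70 and 75. The second contig of that description (contig77173) had 0 reads in coral 2 in pool 400 and 1 in pool 300, against 27 in coral 70 in pool 400. Without the filter on low values its F test among corals gave an unadjusted p of 0.0319 and a limma adjusted p of 0.174 over 16980 contigs.

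Putative ammonium transporter 3 had 3 such contigs. In contig100370 corals 2, 7 and 75 had 4, 14 and 10 reads in pool 300 and 0, 0 and 3 in pool 400, so that each coral from pool 300 was higher at home. Corals 40 and 70 had 9 and 2 reads in pool 300 and 5 and 4 in pool 400, and coral 68 had 0 in both. Without the filter the difference in corals from pool 300 was 2.48 (SE 0.66), with an unadjusted p of 0.00273 and a limma adjusted p of 0.309. The difference between origins, at 2.51 (SE 0.93), did not pass the limma test either. These fitted values rest on the few reads given and are no bound on the fold. The contigs contig147115 and contig210361 had between 0 and 9 reads per library, and their pool differences were 0.43 (SE 0.39) and -0.55 (SE 0.56).

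**Figure D4:**
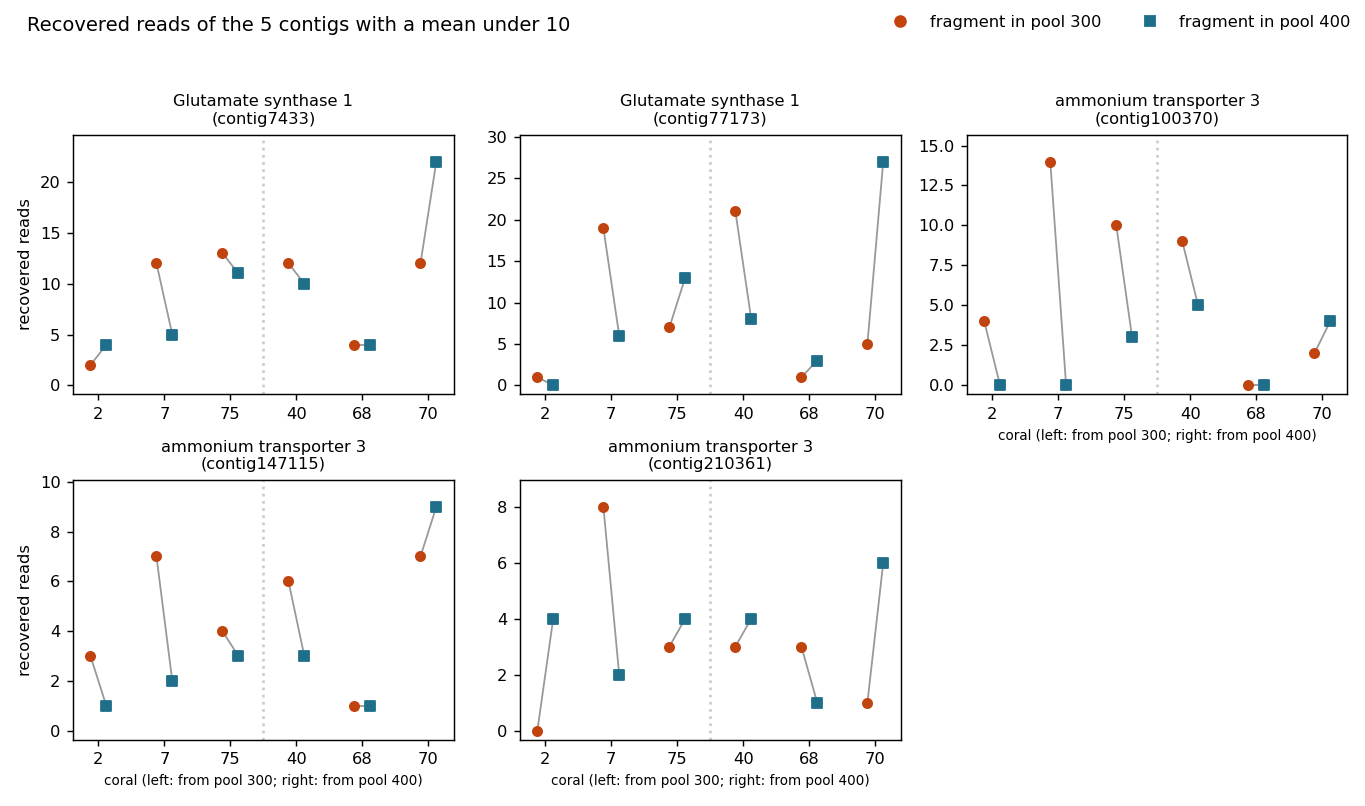
Recovered reads on the vertical axis for the 5 members with a mean under 10, by coral on the horizontal axis, with circles for pool 300, squares for pool 400 and lines joining both fragments of a coral. In contig100370 corals 2, 7 and 75 have 4, 14 and 10 reads in pool 300 and 0, 0 and 3 in pool 400.

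The other genes of nitrogen handling were taken from 6 lists of description patterns. In all 6 lists, limma called 0 of the tested contigs between pools and 0 between origins. Among 8 contigs that use the amide group of glutamine, Phosphoribosylformylglycinamidine synthase (contig212865), of purine synthesis, had a pool difference of 0.58 (SE 0.26, limma adjusted p = 0.9996). CAD protein (contig176238), of pyrimidine synthesis, had an origin difference of -0.36 (SE 0.33). Among 24 of transamination and glutamate use, Ornithine aminotransferase (contig145508), which passes nitrogen between ornithine and glutamate, had an origin difference of -0.94 (SE 0.37, limma adjusted p = 0.998). Glutamate--cysteine ligase regulatory subunit (contig116764), of glutathione synthesis, had a pool difference of 0.19 (SE 0.11). The list of 25 for ammonia release, urea and uric acid holds Urease accessory protein UreD (contig76489), a helper of urease assembly, at a pool difference of -0.58 (SE 0.30, limma adjusted p = 0.9996). Xanthine dehydrogenase (contig150241), which makes uric acid, had an origin difference of 0.39 (SE 0.24). Some patterns of this list also matched dimethylglycine dehydrogenase and RNA-editing adenosine deaminases. Median pool differences of the 6 lists ran from -0.10 to 0.09.

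The list for supply of 2-oxoglutarate, the carbon skeleton onto which ammonium is placed, had 12 tested contigs. Its patterns also matched 2-oxoglutarate dehydrogenase, which consumes 2-oxoglutarate. Isocitrate dehydrogenase [NADP] (contig175721) had a pool difference of -0.23 (SE 0.09, limma adjusted p = 0.875). Aconitate hydratase (contig147472), of the citric acid cycle, had an origin difference of -0.55 (SE 0.37). Low affinity cationic amino acid transporter 2 (contig177502), of 10 tested contigs of amino acid and glutamate transporters, had a pool difference of 0.66 (SE 0.35, limma adjusted p = 0.9996). High affinity cationic amino acid transporter 1 (contig109325) had an origin difference of 0.44 (SE 0.37). The list of the V-type proton ATPase, which acidifies compartments, had 22 tested contigs, some of them of the same subunit. Subunit d 1 (contig208000) had a pool difference of 0.50 (SE 0.24, limma adjusted p = 0.9996) and an origin difference of -0.66 (SE 0.37). Among corals 4 contigs of the lists passed, named here after their values were seen. They were Glycine dehydrogenase [decarboxylating] (contig138327, limma adjusted p = 0.0331), a pair of contigs of Isocitrate dehydrogenase [NADP] (contig176771 and contig175721, adjusted p = 0.0159 and 0.0283) and V-type proton ATPase subunit G (contig191816, adjusted p = 0.0496). The share of all contigs that passed was 4.97%.

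Markers of the algae were few, with 2 contigs matched. Their summed level ran from 43.4 to 86.7 in pool 300 and from 53.0 to 121 in pool 400, and neither was at 0 in all libraries of a pool. Photosystem Q(B) protein (contig217061) was between 28.1 and 86.7 in every library. Photosystem II CP47 chlorophyll apoprotein (contig194637) was between 24.8 and 51.8 in corals 2, 7 and 75, at 13.3 and 17.3 in coral 70 and between 0 and 1.37 in corals 40 and 68. Corals 2 and 7 had reads of both CP47 and contig179475, corals 75 and 70 had CP47 reads alone, and corals 40 and 68 had contig179475 with CP47 at or near 0. The part of the algae in the levels of the members was not tested. Of 19 tested muscle markers 4 had an unadjusted p under 0.05 between pools, beside 4.87% of all contigs, with a median difference of 0.19 beside 0.03. Of 23 tested markers of cilia 3 did, at a median of -0.05. Of 7 contigs matched as oocyte markers 5 were tested, and of 6 matched as markers of cnidocytes, the stinging cells, 2 were. Of these tested contigs 0 did, at medians of -0.09 and -0.28. The oocyte patterns matched mainly CUB and zona pellucida-like domain-containing protein 1, which need not mark oocytes. Those for muscle also matched leucine-rich repeat and calponin homology domain-containing proteins. The summed level of the muscle markers was 2698 to 3189 in pool 300 and 2007 to 3518 in pool 400, and its part in the pool difference of contig203542 was not tested.

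Likeness of pattern was measured as Pearson correlation of log2(value + 1) over the 12 libraries, which share scaling and come from 6 corals. Glutamine synthetase (contig169372) was most like Centromere-associated protein E (contig191594, r = 0.951), Glutaredoxin (contig176061, r = 0.949) and Lysosomal-associated transmembrane protein 4A (contig147946, r = 0.925). The Rh type C-like 2 contig contig203542 was most like Synaptogyrin-2 (contig113747, r = 0.932), Zinc finger protein 207 (contig155707, r = 0.927) and Calcium-dependent secretion activator 1 (contig120089, r = 0.926). After rescaling these 3 values were 0.812, 0.838 and 0.757. NAD(P)-specific glutamate dehydrogenase (contig149835) was most like the UPF0687 protein C20orf27 homolog (contig109941, r = 0.922), Nucleotide-binding oligomerization domain-containing protein 2 (contig600218, r = 0.916) and Cyclin-dependent kinase 8 (contig205140, r = 0.898).

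The same measure was run for contig179475 after its values were seen. It was most like Polyamine oxidase (contig210947, r = 0.897) and Developmentally-regulated GTP-binding protein 2 (contig217888, r = 0.857). CUB and sushi domain-containing protein 3 (contig186253, r = 0.764) came next. After rescaling these 3 values were 0.941, 0.963 and 0.81. Polyamine oxidase was at 10.1 and 15.8 in coral 75 and at 7.61 and 22.2 in coral 70, in pool 300 and pool 400, and at 23.2 to 99.4 in the other corals. The pool 400 libraries of coral 70 and coral 2, at 22.2 and 23.2, were thus next to each other, and no library was at 0. Within the members contig179475 and NAD(P)-specific glutamate dehydrogenase ran opposite, at r = -0.871, and at -0.563 after rescaling. Over the 28 pairs of tested members r ran from -0.871 to 0.742, and Glutamate dehydrogenase and Glutamate dehydrogenase 1 were the pair most alike.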

How the data were processed

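Per the labels' protocols, RNA was extracted with an RNAqueous kit and libraries were made with TruSeq kits, 12 to a lane. The submitters' processing notes list BWA and DESeq, without version or role. The deposited values are a signal, that is, counts of reads per contig over a library's size factor, judged from the values. At a tolerance of 0.01 all were whole multiples of the worth of 1 read, except 1 value in the pool 400 library of coral 2. Per the file headers the pool 400 columns were adjusted, in a way not given in the sources used here. The deposited group means and SDs were not used.

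The tests used limma 3.58.1 (R 4.3.3) on log2(value + 1), with a trended prior variance. Adjustment by Benjamini-Hochberg covered all 11903 contigs whose mean reached 10, and 0.05 was the threshold. A fold change on this scale understates the change of low contigs. Pool effects had the coral as a block, since the labels give both fragments of a coral the same number and each coral is a single colony. Origin was tested on coral means, 3 against 3, and differences among corals by an F test with pool as a term. With fragments as the only repeat, this p measures the spread between fragments. edgeR 4.0.16 (quasi-likelihood) on the recovered reads was an alternative. In simulated data with 200 of 11903 contigs changed, the pool fit recovered 68% of the 2-fold changes and 100% of the 4-fold changes, with 11 of 179 calls false. The origin fit recovered 22% and 97%, with 7 of 126 calls false, and the fit of coral differences 12% and 93%, with 14 of 119 false. The simulated counts had a single assumed dispersion and were scaled by their true factors. For coral differences a single coral was shifted, and unchanged contigs did not differ among corals. The rates in the real data may therefore differ. The members and lists were chosen with earlier results of these data known. Members were described in full where they passed any test, had the 2 smallest p of a comparison or were among the 6 highest means, and list contigs by the smallest p for pool and for origin. A count of reads covers counting error only.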

Additional observations from a re-analysis of the deposited data

How the results depend on the processing

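The call counts of 0 members between pools (over 6 corals, within each origin and as the gap between origins) and between origins were 0 in every alternative run, the fit with no replicate block (0) and the replicate block that swaps the pool 400 libraries of corals 40 and 68 (0) included. Among corals the count of 1 member became 0 at a minimum mean of 20, where contig179475 is not tested, and 2 with rescaling and the exchanged block together, a setting added after seeing the data. Leaving out each coral gave 1 to 2, the latter without coral 70, when glutamine synthetase passed. Contig179475 passed in all 16 alternatives in which it was tested.

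Of 842 recomputed member values 72 changed sign, all in pool or origin results, of which none was called in any setting. The ranges among corals cannot change sign, as they are the highest minus the lowest coral mean. The count of all contigs called moved far more: for pool over 6 corals from 41 to 8 with rescaling and 8 with edgeR, and for coral differences from 592 to 393 with rescaling and 112 without coral 2. With no variance trend these were 0 and 187. Without coral 2, 7, 75 or 40 the pool count was 4 to 5, and without coral 70 it was 74. Coral differences numbered 210, 222 and 347 without corals 7, 75 and 40. Rescaling moved the median of all contigs from 0.126 to -0.0179 for the pool effect in corals of pool 300, from -0.0868 to 0.0341 in corals of pool 400 and from 0.203 to -0.0585 for their gap. Depth limits the 5 members under a mean of 10, and origin has 3 corals a side.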
